A study of Homo sapiens with 12 samples.

Results

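The DNA replication and S-phase genes described here are 53 genes chosen by name, from the origin recognition factors to the enzymes of deoxynucleotide synthesis, out of 55243 symbols in the deposited table. All 53 were found, and 52 passed a filter of at least 1 TPM (relative abundance, with transcript length and library total divided out) in at least 3 of the 12 libraries, which 14722 symbols passed. E2F2, a transcription factor of the E2F family, did not pass, with a lowest value of 0.396 TPM and a highest of 1.499 TPM. RNA-seq was made from the established line HT1080, human fibrosarcoma cells in which NRAS, the gene of a RAS GTPase that drives the MAP kinase pathway, is mutated. The 4 groups of 3 libraries were control siRNA (siNC) with DMSO, siNC with poly(dA:dT), siRNA against the NRAS Q61K mutation (siQ61K) with DMSO, and siQ61K with poly(dA:dT). Poly(dA:dT) is a synthetic duplex DNA, detected in cells by the sensors of cytosolic DNA. All 4 groups are the same cell line, and the sources used here give neither doses nor times. The table's columns carry short names that were matched to the sample titles on the reading that they abbreviate the siRNA and the added agent, an inference from names alone. Whether the 3 libraries within a group were separate cultures is not labelled, so p-values reflect the spread among libraries alone, possibly a technical one. The study asked how knockdown of mutant NRAS changes the interferon-alpha response, and the replication genes were measured along with the rest of the transcriptome.

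NRAS, the targeted gene, checked the siRNA labels but not those of poly(dA:dT). Its 3 libraries with DMSO gave 59.6, 60.6 and 41.4 TPM for siNC and 15.5, 15.2 and 19.9 TPM for siQ61K. Those with poly(dA:dT) gave 43.0, 45.9 and 51.7 TPM and 20.1, 20.3 and 23.5 TPM. Every siQ61K library lay below every siNC library. The values are per gene symbol and do not separate mutant from unmutated NRAS transcripts. The labels name 1 siRNA against NRAS, so effects of that siRNA apart from mutant NRAS cannot be told apart. Knockdown below means siQ61K against siNC. The log2 fold change without poly(dA:dT) was -1.61 (SE 0.16, adjusted p = 2.54e-05), and in its presence -1.10 (SE 0.16, adjusted p = 0.000426). The difference between these 2 NRAS values was not called (0.51, adjusted p = 0.137). After the correction for GC content and length described below they were -1.27 and -1.21. The fold changes here are on the log2(TPM + 1) scale, which understates the change of low genes, and adjusted p-values come from 1 limma model over all 14722 genes with Benjamini-Hochberg adjustment, where a gene is called below 0.05. Across genes, libraries of a group correlated at 0.966 to 0.984. TPM keeps no depth, which is therefore unknown. Of 6 mesenchymal markers none was below 11.05 TPM in any library, and 11 markers of blood, epithelial, endothelial, liver and glial cells reached at most 1.23 TPM, with MS4A1 at 0 throughout. The summed level of those 11 markers was between 0.301 and 1.91 TPM in the DMSO groups and between 0.426 and 2.11 TPM in the poly(dA:dT) groups.

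Replication is prepared in G1, when the origin recognition complex with CDC6 and CDT1 loads the MCM2-7 helicase onto DNA, a step called licensing that geminin (GMNN) restrains. At the start of S phase the kinase CDC7 with its activator DBF4, and cyclin E (CCNE1, CCNE2) with its kinase, turn the loaded helicase into an active one by adding CDC45 and the GINS complex. Polymerase alpha with primase then starts each strand, polymerases delta and epsilon extend it on the PCNA clamp that replication factor C loads, RPA covers single strands, and FEN1 and LIG1 join the Okazaki fragments. Ribonucleotide reductase (RRM1, RRM2), thymidylate synthase (TYMS), thymidine kinase (TK1) and dUTPase (DUT) set the supply of deoxynucleotides. Many of these genes are textbook targets of the E2F transcription factors, which growth factor and RAS signalling release from RB1 in G1.

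In siNC cells with DMSO the 53 genes spanned a wide range of levels. PCNA was the highest at 287 ± 28.3 TPM (SD, n = 3), followed by MCM7 at 222 ± 3.61 TPM and TYMS at 213 ± 11.1 TPM. The libraries of MCM7 and TYMS overlapped, and those of PCNA were above both. Next came DUT at 165 ± 24.3, POLD2 at 144 ± 6.98 and RRM2 at 142 ± 7.26 TPM, which also overlapped one another. At the low end stood CCNE1 at 5.18 ± 1.36, CCNE2 at 2.52 ± 0.627 and E2F2 at 0.527 ± 0.0273 TPM, 3 regulators of entry into S phase. Subunits of 1 complex did not have equal mRNA levels. In the helicase hexamer MCM7 stood at 222 TPM against 56.9 for MCM2, 55.2 for MCM3, 53.8 for MCM5, 36.8 for MCM6 and 36.7 for MCM4, and no library of those 5 reached any MCM7 library. Among the polymerase delta subunits POLD2 stood at 144 TPM, the catalytic POLD1 at 59.4 and POLD3 at 7.25. Within RPA, the single-strand binding trimer, RPA1 and RPA3 stood at 76.4 and 73.3 TPM and RPA2 at 30.6 TPM.

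Reads from near-identical copies and overlapping genes can bear on these levels. In all, 24 numbered pseudogene copies of 10 members were listed, and the highest mean of any of them was 0.203 TPM. For 11 members the exons overlap those of a gene on the other strand whose mean TPM was at least 10% of the member's own: CCNE2, CHAF1A, DBF4, FEN1, GINS2, GINS3, GINS4, MCM2, RFC4, RFC5 and RPA3. Whether the counting used strand is not given in the sources used here, so for these 11 genes reads of the 2 partners may not be separated, and their values below are uncertain in that respect.

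The promoters of the members were read from RefSeq (GRCh38.p14), as windows from 250 bases before to 50 bases after each gene's start. Of the 53 members 46 had an entry, and RPA3, CCNE2, MCM4, POLD3, MCM5, RPA2 and GINS4 had none. More than 1 entry was listed for 11 members, and a gene counted as holding a word if any of its entries did. Both strands were searched for the E2F words TTTCCCGC, TTTCGCGC, TTTGCCGC and TTTGGCGC, for the CCAAT box, for the CHR word TTTGAA, which is known from promoters of mitosis genes, and for the GC box GGGCGG. E2F words were found in 25 of the 46 members (54.3%), against 6.8% of the tested genes with an entry and 4.0% of all genes in the promoter table. The CHR word was found in 6.5% of the members, against 71.0% of 31 mitosis genes, and E2F words in 6.5% of those mitosis genes. The CCAAT box was found in 60.9% of the members and 43.7% of tested genes, and the GC box in 80.4% and 76.3%. A match is a description of letters in a window and not evidence of binding. E2F words were found in 4 of the 12 members that fell in both knockdown comparisons in the deposited values (33.3%), against 54.3% of the members with an entry. The promoters below are picked examples and do not show how often falling members hold a word. They belong to MCM7, TYMS and LIG1, which fell in both knockdown comparisons and hold E2F words, to RRM2, which fell in both and holds CCAAT boxes without an E2F word, and to CCNE1, which rose in both and holds neither. MCM7 had 3 entries and RRM2 had 2, and the entry shown is the one with the most E2F words, or the first among equals. Capitals mark E2F words and CCAAT boxes on either strand, and the sequences run 5′ to 3′ on the gene's strand. The windows are chr7:100101348-100101647 on the minus strand for MCM7, chr18:657403-657702 on the plus strand for TYMS, chr19:48170295-48170594 on the minus strand for LIG1, chr2:10122489-10122788 on the plus strand for RRM2 and chr19:29811741-29812040 on the plus strand for CCNE1.
MCM7: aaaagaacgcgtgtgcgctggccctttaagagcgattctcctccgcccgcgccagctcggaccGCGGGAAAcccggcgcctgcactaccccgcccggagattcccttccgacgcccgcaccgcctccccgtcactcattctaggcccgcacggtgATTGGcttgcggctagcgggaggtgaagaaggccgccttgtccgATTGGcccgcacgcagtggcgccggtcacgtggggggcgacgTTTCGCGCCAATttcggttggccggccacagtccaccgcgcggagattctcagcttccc
TYMS: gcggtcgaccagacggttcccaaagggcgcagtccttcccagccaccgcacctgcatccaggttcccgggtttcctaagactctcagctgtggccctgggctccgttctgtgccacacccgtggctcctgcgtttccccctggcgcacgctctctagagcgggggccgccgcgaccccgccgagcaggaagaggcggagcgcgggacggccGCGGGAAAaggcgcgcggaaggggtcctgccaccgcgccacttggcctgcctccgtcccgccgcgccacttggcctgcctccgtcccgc
LIG1: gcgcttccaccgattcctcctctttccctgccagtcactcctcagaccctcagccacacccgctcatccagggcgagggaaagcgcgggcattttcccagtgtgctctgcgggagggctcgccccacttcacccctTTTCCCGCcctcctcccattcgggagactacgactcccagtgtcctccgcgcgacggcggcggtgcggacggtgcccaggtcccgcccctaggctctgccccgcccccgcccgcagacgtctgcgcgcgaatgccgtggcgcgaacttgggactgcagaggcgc
RRM2: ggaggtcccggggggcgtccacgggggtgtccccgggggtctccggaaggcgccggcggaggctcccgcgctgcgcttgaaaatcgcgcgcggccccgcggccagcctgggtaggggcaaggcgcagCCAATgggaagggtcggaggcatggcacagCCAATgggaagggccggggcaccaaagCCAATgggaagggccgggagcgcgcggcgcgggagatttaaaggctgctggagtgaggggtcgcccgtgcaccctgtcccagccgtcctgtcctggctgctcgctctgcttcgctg
CCNE1: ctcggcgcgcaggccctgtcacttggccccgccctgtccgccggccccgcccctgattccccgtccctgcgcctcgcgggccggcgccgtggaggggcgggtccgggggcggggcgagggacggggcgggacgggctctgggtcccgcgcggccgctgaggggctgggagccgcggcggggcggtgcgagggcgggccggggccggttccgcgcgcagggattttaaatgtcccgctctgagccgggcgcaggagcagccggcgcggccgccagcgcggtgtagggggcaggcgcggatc
MCM7 held 2 E2F words and 3 CCAAT boxes, of which 1 base belonged to both kinds, TYMS and LIG1 held 1 E2F word each, RRM2 held 3 CCAAT boxes, and CCNE1 held neither word.

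Without poly(dA:dT), 24 of the 52 tested replication genes were lower with siQ61K than with siNC, and 3 were higher. The largest falls were those of DBF4, the activating subunit of the CDC7 kinase, RPA3, and POLE2, the second subunit of polymerase epsilon, and the 3 genes that rose were CCNE1, POLD2 and CHAF1A. Of all tested genes, 14.8% were called lower and 16.6% higher in that comparison, so the share of members called lower stood above the share of all genes and that of members called higher below it. The median log2 fold change of the members was -0.34, beside 0.01 over all tested genes. With poly(dA:dT) in both arms, 22 members fell and 1 (CCNE1) rose, beside 12.6% and 8.71% of all tested genes, and the median was -0.36 beside -0.07. The sum over the members was 2726 to 2780 TPM in siNC DMSO libraries and 2164 to 2284 TPM in siQ61K DMSO libraries. It was 2833 to 2849 TPM in siNC poly(dA:dT) libraries and 2139 to 2194 TPM in siQ61K poly(dA:dT) libraries. In bulk RNA, fewer cells in S phase and less of each mRNA per cell cannot be told apart. The list was chosen with earlier results of these data known, so its counts are a description of the members.

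**Figure D1:**
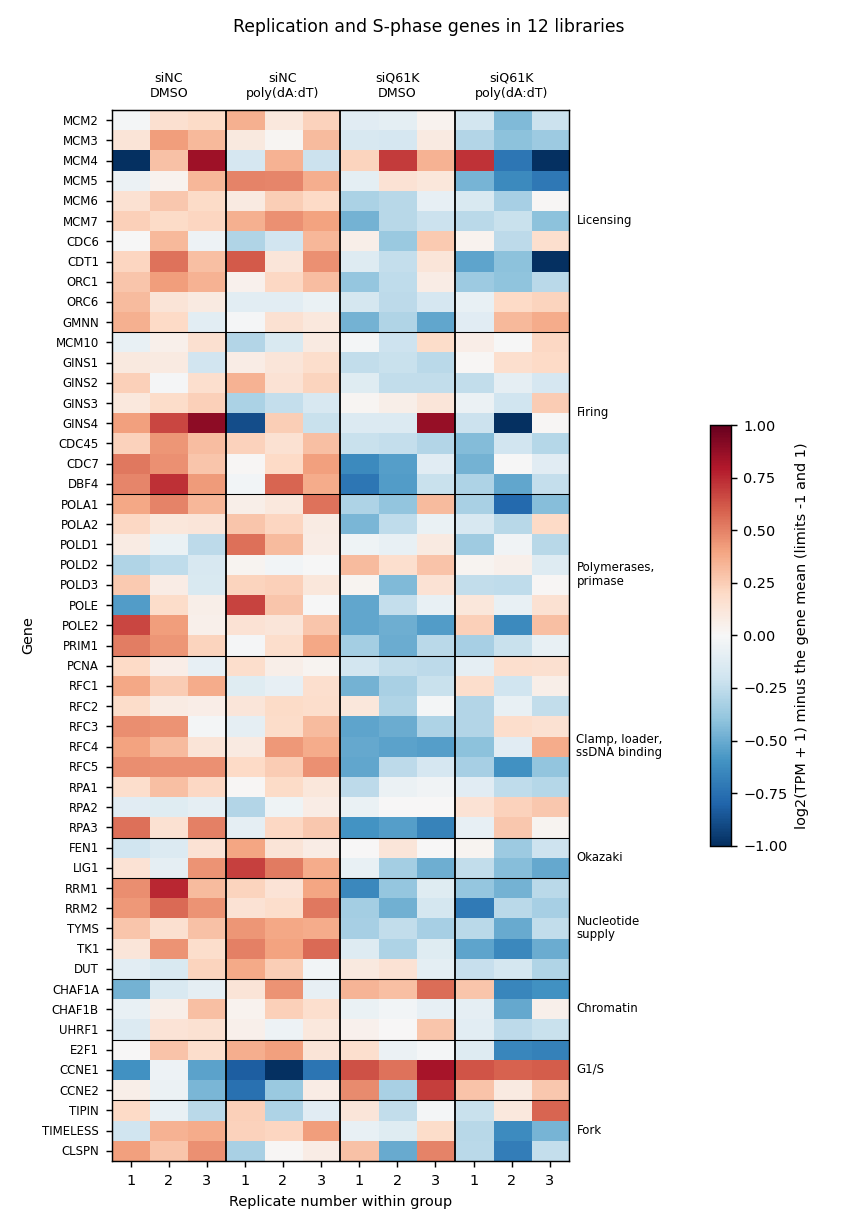
Each row is 1 of the 52 tested genes, grouped by role, and each column 1 of the 12 libraries; colour gives log2(TPM + 1) minus the gene's mean, limited to -1 and 1. The 24 and 22 genes that fell after knockdown appear mostly blue in the siQ61K columns of the same treatment at right, CCNE1 runs the opposite way, and MCM4 and GINS4 vary within groups.

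The pattern ran through single libraries. The median of the members' centred log2 values was positive in all 6 siNC libraries, from 0.095 to 0.193, and negative in all 6 siQ61K libraries, from -0.257 in siQ61K poly(dA:dT) replicate 2 to -0.051 in siQ61K DMSO replicate 3. In siQ61K DMSO replicate 3, 30 of the 52 genes were below their own mean, and 42 were in replicate 2 of that group. MCM4, the helicase subunit with the widest spread, went from 11.7 TPM in siQ61K poly(dA:dT) replicate 3 to 57.0 TPM in siNC DMSO replicate 3. GINS4 went from 2.95 to 19.8 TPM. Neither was called in any comparison, and their SEs of 0.49 and 0.39 were the widest of the members.

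Deposited values carried a relation to transcript GC content that differed between groups, so each comparison was also computed after a smooth correction of every library for the length and GC content of each longest transcript, known for all 52 tested members. The correction was chosen with earlier results of these data known. After it, 26 members were lower and 2 (CCNE1 and CCNE2) higher without poly(dA:dT), beside 12% and 12.7% of all genes, and 26 were lower and 1 (CCNE1) higher with it, beside 15.8% and 10.1%. The medians were -0.36 in both. Values after the correction are given below as corrected.

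Licensing genes fell in both comparisons, 6 of 11 in each, with MCM7, MCM3 and ORC1 common to both. MCM7 stood at 226, 219 and 222 TPM with siNC against 137, 158 and 165 TPM with siQ61K without poly(dA:dT), and at 246, 263 and 253 and 159, 164 and 144 TPM with it. The siQ61K libraries were below all siNC libraries, and the log2 fold changes were -0.54 (SE 0.09, adjusted p = 0.00103) and -0.70 (SE 0.09, adjusted p = 0.000185). MCM5, another subunit of the hexamer, was called with poly(dA:dT) and not without it in the deposited values. It stood at 47.7, 50.9 and 62.9 TPM and 46.2, 54.9 and 53.9 TPM without poly(dA:dT), which overlapped, and at 70.4, 69.9 and 64.2 and 35.7, 31.7 and 29.9 TPM with it, which did not. Its log2 fold changes were -0.05 (adjusted p = 0.787) and -1.05 (SE 0.13, adjusted p = 8.37e-05), and after correction -0.36 (adjusted p = 0.0138) and -0.89 (adjusted p = 3e-05), both called. CDT1, the helicase loader, was at 31.99, 40.2 and 33.9 TPM with siNC against 24.99, 22.98 and 29.9 TPM with siQ61K, and with poly(dA:dT) at 42.4, 29.8 and 37.95 and 18.6, 20.3 and 12.6 TPM. Its siQ61K libraries were below every siNC library in both settings, and it was called with poly(dA:dT) (-1.07, adjusted p = 0.00153) and not without it (-0.43, adjusted p = 0.0926), a difference that was not itself called (interaction adjusted p = 0.111). Corrected CDT1 values were called in both (-0.95 and -0.86, adjusted p = 0.00235 and 0.00384). GMNN, the inhibitor of licensing, was at 68.9, 61.8 and 49.8 TPM and 38.4, 43.3 and 37.01 TPM without poly(dA:dT) and fell there (log2 fold change -0.58, adjusted p = 0.0102), but not without siNC DMSO replicate 1 (adjusted p = 0.0529). With poly(dA:dT) its libraries overlapped, at 53.2, 59.8 and 57.9 TPM and 49.5, 67.4 and 69.8 TPM, and it was not called (0.11, adjusted p = 0.636). MCM6 was at 35.4, 38.5 and 36.4 TPM with siNC against 25.3, 26.01 and 29.9 TPM with siQ61K and fell without poly(dA:dT) (-0.43, adjusted p = 0.0153), which was lost after correction (adjusted p = 0.0979) and without siNC DMSO replicate 2, siQ61K DMSO replicate 1 or siQ61K DMSO replicate 2 (adjusted p up to 0.0669). With poly(dA:dT) MCM6 was not called in the deposited values (-0.33, adjusted p = 0.0629), but was called lower after correction (-0.44, adjusted p = 0.00648). MCM2 was called lower with poly(dA:dT) (-0.51, adjusted p = 0.00667) and CDC6, a licensing factor next to CDT1, in neither (-0.11 and 0.04).

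Among the 8 genes of origin firing, CDC45 and DBF4 fell in both comparisons, CDC7 without poly(dA:dT) and GINS2 with it. DBF4 stood at 44.2, 52.6 and 42.4 TPM with siNC against 18.5, 20.9 and 26.6 TPM with siQ61K without poly(dA:dT), and at 30.6, 47.2 and 40.6 and 25.1, 21.5 and 26.3 TPM with it. Every siQ61K library was below every siNC library, and the log2 fold changes were -1.05 (SE 0.17, adjusted p = 0.000771) and -0.66 (SE 0.17, adjusted p = 0.0163). The second of these was lost without siNC poly(dA:dT) replicate 2, siNC poly(dA:dT) replicate 3 or siQ61K poly(dA:dT) replicate 2, with an adjusted p of up to 0.0776. CDC7, the kinase that DBF4 activates, was at 14.7, 13.9 and 12.2 TPM and 5.99, 6.41 and 9.06 TPM without poly(dA:dT) (-0.85 in log2, SE 0.18, adjusted p = 0.00405) and reached -0.40 (adjusted p = 0.138) with it. CDC45, the helicase cofactor, was at 24.1, 27.99 and 25.6 TPM with siNC against 17.3, 17.1 and 16.4 TPM with siQ61K, with no overlap. Its log2 fold changes were -0.58 (adjusted p = 0.00268) and -0.53 (adjusted p = 0.00588). After correction CDC7, DBF4, CDC45 and GINS2 were called lower in both comparisons, and MCM10, GINS1, GINS3 and GINS4 in neither.

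Of the 8 polymerase and primase genes 3 fell and 1 rose without poly(dA:dT), and 2 fell with it. PRIM1, the catalytic primase subunit, stood at 53.8, 51.2 and 43.8 TPM with siNC against 29.3, 26.2 and 30.9 TPM with siQ61K (log2 fold change -0.76, SE 0.13, adjusted p = 0.0011), without overlap. With poly(dA:dT) it reached -0.39 (adjusted p = 0.0513), just above the threshold, and after correction it was called in both. POLE2 was at 17.4, 14.5 and 10.99 TPM and 7.07, 7.25 and 6.86 TPM (-0.90, adjusted p = 0.00982), lost without siNC DMSO replicate 1 (adjusted p = 0.0509). POLD2 went up, from 138, 143 and 152 TPM to 212, 191 and 208 TPM, with every siQ61K library above every siNC library. Its log2 fold change was 0.49 (SE 0.09, adjusted p = 0.00127), but 0.18 (adjusted p = 0.172) after correction, and -0.02 (adjusted p = 0.914) with poly(dA:dT). POLD1, the catalytic subunit of the same polymerase, overlapped without poly(dA:dT), at 66.4, 59.8 and 51.96 TPM and 60.5, 59.4 and 66.7 TPM, and was called lower with it (-0.54, adjusted p = 0.0149). That call was lost after correction (adjusted p = 0.144), and without siNC poly(dA:dT) replicate 1 or siQ61K poly(dA:dT) replicate 3 (adjusted p up to 0.0689).

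The clamp, its loader and RPA gave 7 of 9 genes lower without poly(dA:dT) and 3 of 9 with it. RFC5, a small subunit of the loader, was at 32.9, 32.8 and 32.8 TPM with siNC against 16.2, 19.5 and 20.9 TPM with siQ61K, and with poly(dA:dT) at 27.2, 28.4 and 32.8 and 18.6, 15.2 and 17.7 TPM. The siQ61K libraries stayed below all siNC libraries, with log2 fold changes of -0.78 (SE 0.13, adjusted p = 0.000869) and -0.75 (SE 0.13, adjusted p = 0.00156). RPA3, the smallest RPA subunit, fell from 80.8, 60.8 and 78.2 TPM to 35.8, 37.1 and 34.1 TPM without poly(dA:dT) (-1.01, SE 0.14, adjusted p = 0.000263). With poly(dA:dT) its libraries overlapped, at 51.3, 63.3 and 66.3 TPM with siNC against 51.7, 66.3 and 55.9 TPM with siQ61K (-0.05, adjusted p = 0.818). RFC1, the large loader subunit, was at 44.1, 40.2 and 43.7 TPM and 23.9, 26.6 and 28.5 TPM without poly(dA:dT) (-0.68, adjusted p = 0.00202) and a log2 fold change of 0.02 (adjusted p = 0.92) with it. RFC3 and RFC4 fell without poly(dA:dT) (-0.74 and -0.82), and RPA1 in both (-0.35 and -0.32). The RPA1 calls depended on single libraries, with the first kept in 10 of the 12 fits that left out a library (adjusted p up to 0.105, lost without siNC DMSO replicate 2 or siQ61K DMSO replicate 1) and the second in 4 of 12 (adjusted p up to 0.146). PCNA fell from 315, 288 and 259 TPM to 241, 231 and 229 TPM (-0.29, adjusted p = 0.0429), a call kept in 5 of the 12 fits that left out a library and lost after correction (adjusted p = 0.39). RPA2 was called in neither comparison (0.09 and 0.30).

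LIG1, the ligase that seals Okazaki fragments, fell in both comparisons. It was at 39.4, 33.2 and 48.6 TPM with siNC against 33.7, 27.8 and 24.98 TPM with siQ61K, with 1 siQ61K library above the lowest siNC library, and with poly(dA:dT) at 57.7, 51.4 and 46.1 and 29.8, 26.2 and 24.6 TPM, with no overlap. The log2 fold changes were -0.47 (SE 0.16, adjusted p = 0.0372) and -0.92 (SE 0.16, adjusted p = 0.00137). The first was lost in 5 of the 12 fits that left out a library (siNC DMSO replicates 1 and 3, siNC poly(dA:dT) replicate 2, siQ61K DMSO replicates 2 and 3, adjusted p up to 0.135). FEN1, the flap nuclease that acts before it, was at 75.2, 78.7 and 95.6 TPM and 86.6, 93.9 and 86.6 TPM without poly(dA:dT) and was called in neither comparison (0.10 and -0.38), but after correction was called lower with poly(dA:dT) (-0.35, adjusted p = 0.0251).

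Of the genes of nucleotide supply 4 of 5 fell without poly(dA:dT) and 5 of 5 with it, with the same counts after correction. RRM1, the large subunit of ribonucleotide reductase, stood at 102, 124 and 91.6 TPM with siNC against 46.5, 55.8 and 67.4 TPM with siQ61K, and with poly(dA:dT) at 85.6, 80.5 and 96.6 and 55.9, 52.6 and 60.7 TPM. RRM2, its S-phase subunit, was at 137, 149.9 and 138 and 79.7, 72.2 and 89.2 TPM, and with poly(dA:dT) at 112, 114 and 146 and 61.4, 83.7 and 79.98 TPM. In neither gene did any siQ61K library reach a siNC library of the same treatment. The log2 fold changes of RRM1 were -0.90 (adjusted p = 0.000738) and -0.62 (adjusted p = 0.0091), and those of RRM2 -0.81 (adjusted p = 0.000988) and -0.72 (adjusted p = 0.00296). TYMS, which makes dTMP, was at 218, 200.2 and 220.4 TPM and 142, 152 and 142 TPM, and with poly(dA:dT) at 244, 234 and 233 and 148, 126 and 151 TPM (-0.55, adjusted p = 0.000926, and -0.74, adjusted p = 0.000126). TK1, the salvage kinase, was at 95.3, 120.1 and 99.1 TPM and 80.2, 70.5 and 80.5 TPM, and with poly(dA:dT) at 124, 116 and 131 and 60.4, 55.8 and 61.9 TPM. Its libraries did not overlap in either setting, and the log2 fold changes were -0.43 (adjusted p = 0.00951, and 0.0523 without siNC DMSO replicate 2) and -1.05 (SE 0.11, adjusted p = 2.96e-05). DUT, which removes dUTP, overlapped without poly(dA:dT), at 153, 148 and 193 TPM and 176, 182 and 154 TPM (0.06, adjusted p = 0.758), and was lower with it (-0.44, adjusted p = 0.0276). The DUT call was lost without siNC poly(dA:dT) replicate 1, siNC poly(dA:dT) replicate 2, siQ61K poly(dA:dT) replicate 2 or siQ61K poly(dA:dT) replicate 3 (adjusted p up to 0.109).

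**Figure D2:**
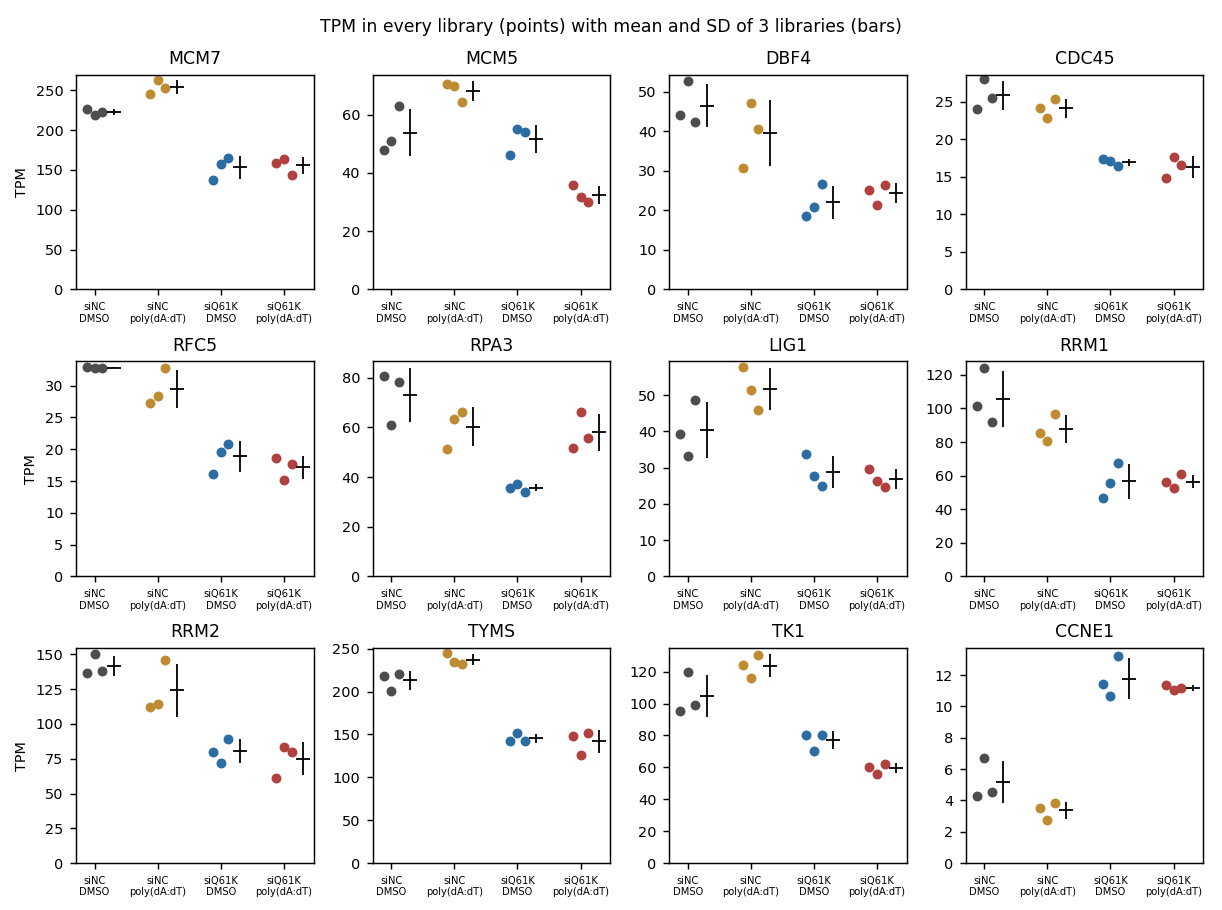
TPM (linear axis from 0) of 12 genes in every library; points are libraries, bars at right of each group the mean and SD of 3 libraries. MCM7, RRM1, RRM2, TYMS, TK1, CDC45, RFC5 and DBF4 are lower in each siQ61K group than in the siNC group of the same treatment, RPA3 is lower without poly(dA:dT) and overlaps with it, MCM5 the reverse, and CCNE1 is higher, at 10.7 to 13.2 TPM against 2.77 to 6.74 TPM.

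CCNE1, the cyclin that drives entry into S phase, was the 1 member that rose in both comparisons. It stood at 4.25, 6.74 and 4.54 TPM with siNC against 11.4, 10.7 and 13.2 TPM with siQ61K, and with poly(dA:dT) at 3.51, 2.77 and 3.84 and 11.4, 11.03 and 11.2 TPM. All 6 siQ61K libraries were above all 6 siNC libraries, and the log2 fold changes were 1.06 (SE 0.18, adjusted p = 0.000839) and 1.49 (SE 0.18, adjusted p = 8.58e-05), or 0.95 and 1.496 after correction. CCNE2, its paralogue, was at 3.03, 2.71 and 1.82 TPM and 4.36, 2.07 and 5.23 TPM without poly(dA:dT), with overlap, and was not called (0.43, adjusted p = 0.274), but after correction was (0.82, adjusted p = 0.0322). E2F1, the activating E2F, was at 13.2, 16.3 and 15.03 TPM and 14.99, 12.6 and 13.01 TPM without poly(dA:dT) (-0.12, adjusted p = 0.609) and fell with it, from 17.3, 17.9 and 14.6 TPM to 11.98, 8.02 and 7.90 TPM (-0.79, adjusted p = 0.00508). After correction E2F1 was called lower in both (-0.55 and -0.61, adjusted p = 0.00771 and 0.00383).

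The remaining groups gave few calls. CHAF1A, the large subunit of the chromatin assembly factor that deposits histones behind the fork, was at 12.4, 15.8 and 16.5 TPM with siNC against 22.6, 21.9 and 26.5 TPM with siQ61K and was called higher (0.64, SE 0.23, adjusted p = 0.0496). That call was kept in 3 of the 12 fits that left out a library (adjusted p up to 0.172) and lost after correction (adjusted p = 0.247), and with poly(dA:dT) the log2 fold change was -0.49 (adjusted p = 0.146). CHAF1B, its partner, was at 7.62, 8.44 and 10.2 and 7.68, 7.90 and 7.59 TPM and UHRF1, which brings the maintenance methyltransferase to new DNA, at 22.4, 27.3 and 27.6 and 25.6, 24.8 and 30.1 TPM, and neither was called in either comparison. Of the fork protection genes TIMELESS was at 14.7, 21.98 and 22.3 TPM and 16.1, 15.6 and 19.5 TPM without poly(dA:dT), with overlap, and fell with it, from 20.2, 19.99 and 23.1 TPM to 13.9, 10.7 and 12.1 TPM (-0.75, adjusted p = 0.00768). Its partner TIPIN, at 13.8, 11.2 and 9.68 and 12.96, 9.85 and 11.7 TPM, and the checkpoint mediator CLSPN, at 13.6, 12.3 and 14.1 and 12.4, 6.74 and 14.5 TPM, overlapped and were not called. In each 3 against 3 comparison without overlap, the exact two-sided permutation test gave p = 0.1, the smallest it can give.

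**Figure D3:**
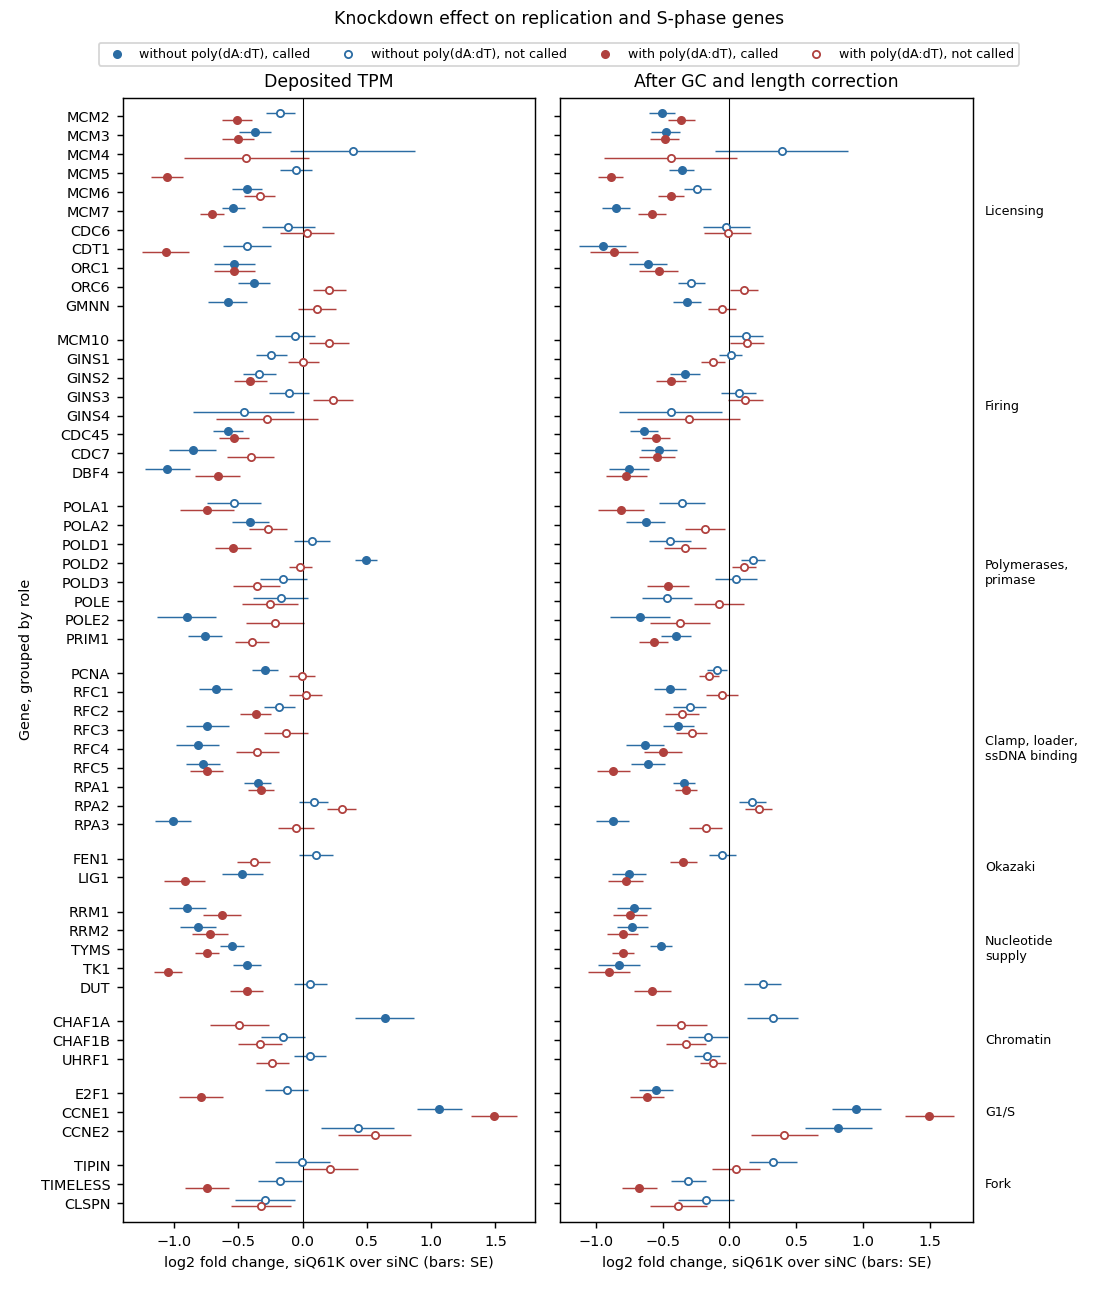
Log2 fold change of siQ61K over siNC for 52 genes by role, without (blue) and with (red) poly(dA:dT); bars are SE, filled points passed an adjusted p below 0.05 in limma. Most points lie left of 0 in both panels, CCNE1 lies at the far right, and the blue and red points lie closer together after the correction, where Pearson's r between them was 0.708 against 0.448.

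The 2 knockdown comparisons contrast different libraries and can be set side by side, but their calls are not independent. All 12 libraries gave 1 estimate of the spread, and the correction took each gene's mean over the 12 libraries as its reference. In the deposited values 12 members fell in both: MCM3, MCM7, CDC45, ORC1, RFC5, RPA1, LIG1, RRM1, RRM2, TYMS, TK1 and DBF4. These were 50% of the members that fell without poly(dA:dT) and 54.5% of those that fell with it. Of all tested genes 4.56% fell in both and 3.94% rose in both, as CCNE1 did. The fold changes had the same sign in 37 of 52 members, and no member was called in opposite directions. After correction 20 members fell in both, 76.9% of each list, beside 7.39% of all genes lower and 5.69% higher in both, and 46 of 52 had the same sign. Members gained were MCM2, MCM5, GINS2, CDT1, PRIM1, RFC4, E2F1 and CDC7. Pearson's r of the 2 sets of fold changes was 0.448 (Spearman 0.287, n = 52 genes) in the deposited values and 0.708 (Spearman 0.612) after correction, across genes that share libraries and are not independent. E2F words stood in 9 of the 19 promoters (47.4%) of members lower in both after correction and in 8 of 16 (50%) of members lower in neither.

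Leaving out each of the 12 libraries in turn, 15 of the 27 calls without poly(dA:dT) were kept by all 12 fits: MCM7, CDC45, CDC7, DBF4, PRIM1, POLD2, RFC1, RFC3, RFC4, RFC5, RPA3, RRM1, RRM2, TYMS and CCNE1. In its presence 14 of 23 calls were kept: MCM2, MCM5, MCM7, CDT1, CDC45, RFC5, LIG1, RRM1, RRM2, TYMS, TK1, E2F1, CCNE1 and TIMELESS. Calls not yet named that were lost in part of the fits were those of MCM3, ORC1, ORC6 and POLA2 without poly(dA:dT), with adjusted p-values of up to 0.133, 0.105, 0.147 and 0.193. In the treated cells these were MCM3 (up to 0.0506, without siNC poly(dA:dT) replicate 3), GINS2 (0.128), ORC1 (0.105), POLA1 (0.0989) and RFC2 (0.118). MCM3 without poly(dA:dT) was lost without siNC DMSO replicate 2 or 3 or siQ61K DMSO replicate 1 or 2, and ORC1 without siNC DMSO replicate 2 or siQ61K DMSO replicate 1 or 2. POLA1 was lost without siNC poly(dA:dT) replicate 3 or siQ61K poly(dA:dT) replicate 2 or 3, and ORC6, POLA2, GINS2 and RFC2 were kept by 6, 4, 4 and 4 of the 12 fits.

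GC content went with the direction of the members' changes in the deposited values. Median GC was 48% in the tested members, with a range of 36.9% to 65.0%, and 48.1% in all tested genes. Without poly(dA:dT) the log2 fold change rose with GC content (Pearson's r = 0.339, n = 52 genes), and 10 of the 18 members with the lowest GC content and 4 of the 17 with the highest were called lower. With poly(dA:dT) it fell with GC content (r = -0.389), and the counts were 5 of 18 and 10 of 17. After correction r was -0.237 and -0.156, and the counts were 9 of 18 and 8 of 17 without poly(dA:dT) and 9 of 18 and 9 of 17 with it. Of all tested genes, 14.8% and 12.6% were called lower in the deposited values, and 12% and 15.8% after correction. Shares of all genes within the same GC ranges were not computed, so these counts are not set apart from the relation over all genes. Over all 14299 tested genes with a GC value, r was 0.456 and -0.216 before the correction and -0.016 and -0.017 after it. MCM5, CDT1 and TK1, with GC contents of 57.0%, 64.9% and 62.8%, had lower fold changes with poly(dA:dT) than without it, and RPA3 and GMNN, at 45.9% and 43.6%, higher ones. The part of the library preparation or of the cells in this relation was not tested.

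**Figure D4:**
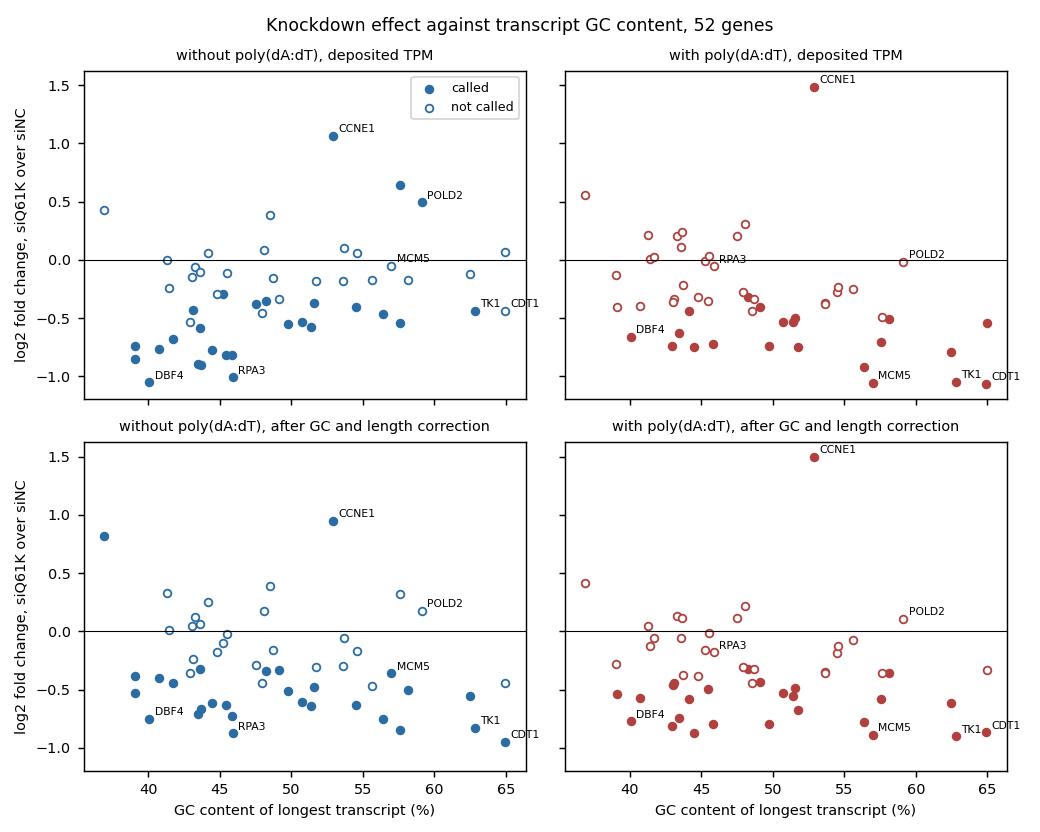
Log2 fold change of siQ61K over siNC against GC content (%) of the longest transcript for 52 genes, without (left) and with (right) poly(dA:dT), in deposited TPM (top) and after correction (bottom); filled points were called. The trend runs upward at top left (r = 0.339) and downward at top right (r = -0.389), and is weaker in the lower panels (-0.237 and -0.156).

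The rest of the pathway was read from a list of 56 further genes. Of these 56 other replication and G1/S genes, 24 fell and 0 rose without poly(dA:dT), and 15 fell and 1 rose with it. Of all tested genes, 14.8% were called lower and 16.6% higher without poly(dA:dT), and 12.6% and 8.71% with it. Without poly(dA:dT), 28 of the 56 had an unadjusted p below 0.05 in limma, beside 6195 of 14722 tested genes. CCNA2, the S-phase cyclin, fell in both (-1.30 and -0.96, adjusted p = 1.1e-05 and 8.92e-05), as did E2F8, a repressive E2F (-0.86 and -1.19). DNA2, a nuclease of Okazaki fragments, fell without poly(dA:dT) (-1.08, adjusted p = 0.00319). CHTF18, of an alternative clamp loader, fell with it (-1.15, adjusted p = 0.000121), and the 1 gene that rose was SLBP, which binds histone mRNA (0.43, adjusted p = 0.0132). The medians of that list were -0.37 and -0.20, beside -0.34 and -0.36 for the members. After correction 20 genes of the list fell and 1 rose without poly(dA:dT), 21 fell and 1 rose with it, and both medians were -0.29. The shares of all genes lower and higher were then 12% and 12.7% without poly(dA:dT), and 15.8% and 10.1% with it. Corrected CHTF18 was called lower without poly(dA:dT) too (-0.84, adjusted p = 0.000758). Of 37 mitosis genes, also chosen with earlier results known, 35 and 36 were called lower, with medians of -1.16 and -0.98. After correction all 37 were called lower in both, with medians of -1.01 and -1.02. In the deposited values the largest falls were NEK2 at -1.63 without and KIF20A at -1.66 with poly(dA:dT), a mitotic kinase and a kinesin. DBF4, the member with the lowest value without poly(dA:dT), reached -1.05.

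Under siNC no member passed the threshold in response to poly(dA:dT): 0 of 52 were called in limma, beside 0.0475% of all tested genes called lower and 0.0747% higher. An unadjusted p below 0.05 in limma was reached by 9 of the 52, beside 1640 of 14722 tested genes. After correction the count of calls was also 0, beside 0.0909% and 0.112%. The unadjusted p in limma was then below 0.05 for 6 members, beside 1115 of 14299 genes. The lowest log2 fold change was that of GINS4 (-0.95, adjusted p = 0.411) and the highest that of POLE (0.42, adjusted p = 0.468), and both vary widely between libraries.

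Under siQ61K, poly(dA:dT) lowered 6 members (CDT1, MCM5, POLD2, TK1, CHAF1A and E2F1) and raised 4 (GMNN, GINS1, PCNA and RPA3) in the deposited values, beside 18.3% and 6.92% of all tested genes, so the share of members that fell was below that of all genes. RPA3 rose from 35.8, 37.1 and 34.1 TPM to 51.7, 66.3 and 55.9 TPM (0.68, SE 0.14, adjusted p = 0.00657), and MCM5 fell from 46.2, 54.9 and 53.9 TPM to 35.7, 31.7 and 29.9 TPM (-0.66, SE 0.13, adjusted p = 0.00569). These 2 calls were kept by all 12 fits that left out a library. GMNN went from 38.4, 43.3 and 37.01 TPM to 49.5, 67.4 and 69.8 TPM (0.63, adjusted p = 0.0112) and CHAF1A from 22.6, 21.9 and 26.5 TPM to 21.7, 10.9 and 11.2 TPM (-0.73, adjusted p = 0.0358), both without overlap between groups. PCNA was at 241, 231 and 229 and 258, 309 and 306 TPM (0.31, adjusted p = 0.0405) and GINS1 at 15.3, 15.7 and 15.1 and 18.6, 20.8 and 21.3 TPM (0.37, adjusted p = 0.04). After correction 1 member was lower (DUT, -0.56, adjusted p = 0.0288) and 2 higher (RPA3, 0.45, adjusted p = 0.037, and POLE, 0.75, adjusted p = 0.0289), beside 8.57% and 2.94% of all genes, and the log2 fold change of PCNA was -0.01. All 6 members that fell in the deposited values were among the 17 with the highest GC content. Over all 14299 tested genes with a GC value, the log2 fold change also fell with GC content (Pearson's r = -0.484, beside -0.497 for the members). Scaling moved the split too: median-of-ratios scaling gave 1 lower and 9 higher, beside 11.2% and 12.9% of all tested genes, and quantile normalization 1 and 10, beside 13.04% and 11.9%, since under them the median over all genes went from -0.15 to -0.0039 and -0.0054. The number of members called, 10 with all libraries, became 3 without siQ61K DMSO replicate 1 or 3, 5 and 2 without replicates 2 and 3 of siQ61K poly(dA:dT), 6 without siNC poly(dA:dT) replicate 2 and 0 when replicate 3 of siQ61K DMSO was left out together with replicate 2 of the treated siQ61K group. The share of all tested genes called moved too, from 25.2% with all libraries to 15.2% and 14.7% without siQ61K DMSO replicate 1 or 3. It was 11.2% and 11.1% without replicates 2 and 3 of siQ61K poly(dA:dT), 22.3% without siNC poly(dA:dT) replicate 2 and 0.978% without the 2 libraries together.

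The interaction asks whether the poly(dA:dT) response differed between the siRNAs, and in the deposited values it was lower under siQ61K for 5 members (MCM5, POLD1, POLD2, TK1 and CHAF1A) and higher for 4 (ORC6, GMNN, RFC1 and RPA3), beside 12.1% and 6% of all tested genes. MCM5 stood at 47.7, 50.9 and 62.9 and 70.4, 69.9 and 64.2 TPM under siNC without and with poly(dA:dT) and at 46.2, 54.9 and 53.9 and 35.7, 31.7 and 29.9 TPM under siQ61K, and its interaction was -1.0 (SE 0.18, adjusted p = 0.00783). For RPA3 the interaction was 0.95 (SE 0.20, adjusted p = 0.0117), for CHAF1A -1.13 (SE 0.32, adjusted p = 0.0318) and for RFC1, at 30.7, 31.6 and 37.7 TPM with poly(dA:dT) under siNC and 38.00, 29.1 and 34.9 TPM under siQ61K, 0.70 (SE 0.18, adjusted p = 0.023). ORC6, a subunit of the origin recognition complex, was at 18.97, 16.5 and 16.03 and 13.9, 13.9 and 14.3 TPM under siNC and 13.2, 12.4 and 13.3 and 14.2, 17.4 and 17.7 TPM under siQ61K (0.59, adjusted p = 0.0406). After correction 8 of the 52 members had an unadjusted p below 0.05 in limma, beside 2838 of 14299 genes. The adjusted threshold was passed by 0 members, beside 0.951% and 1.05% of all genes called lower and higher. The nearest were DUT (-0.83, adjusted p = 0.0526), MCM5 (-0.53, adjusted p = 0.0577) and RPA3 (0.70, adjusted p = 0.0614). The members' interaction went with GC content in the deposited values (Pearson's r = -0.693, n = 52 genes, and 0.105 after correction), and all 5 members that were lower were among the 17 with the highest GC content. Over all 14299 genes with a GC value r was -0.58, and -0.002 after correction. Median-of-ratios scaling gave 3 lower and 4 higher, beside 10.03% and 9.20% of all tested genes, and quantile normalization 4 and 4, beside 11.1% and 9.69%. Of siNC DMSO, leaving out replicate 1 or 2 turned the count of 9 into 2 or 5, and of siNC poly(dA:dT), replicate 1 or 2 into 4. Leaving out siQ61K DMSO replicate 1 or 3 gave 2 or 5, and siQ61K poly(dA:dT) replicate 3 gave 3. The share of all tested genes called, 18.1% with all libraries, moved too. It was 6.63% and 10.6% without siNC DMSO replicate 1 or 2, and 8.64% and 11.04% without siNC poly(dA:dT) replicate 1 or 2. Without siQ61K DMSO replicate 1 or 3 it was 9.35% and 13.8%, and without siQ61K poly(dA:dT) replicate 3 it was 7.07%.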

How the data were processed

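The authors deposited 1 table of TPM per gene symbol for the 12 libraries; per the labels' protocols these were NEBNext Ultra RNA libraries of total RNA read on an Illumina NovaSeq. The submitters' processing notes name Salmon 0.8.0 and the build hg19. Not given in the sources used here are the annotation, the strand setting and how transcripts became gene values. Of 56227 entries, 984 that shared 58 symbols were left out, and 0 columns were unused. No gene coordinates are given except those of RefSeq promoters, because the references are on another build than hg19.

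Values were analysed as log2(TPM + 1) for 14722 genes in 1 limma 3.58.1 model (R 4.3.3) of all 4 groups, with a trended variance and p-values adjusted by Benjamini-Hochberg at 0.05. The 5 comparisons were the knockdown in DMSO and in treated cells, poly(dA:dT) under each siRNA, and the interaction. The correction for GC content and length used lowess (span 0.3) on the longest GENCODE 29 transcript, known for 97.13% of tested genes. The fit was run on simulated data in which some genes were changed by known amounts. The correction was run on the same data with a linear GC trend added to each library. Such a trend is what the correction is built to remove, so that run checks the code alone. Its length step, and whether knockdown effects are kept through it, were not tested.

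The members, role groups, lists and alternatives were chosen with earlier results of these data known. Values in every library are given for up to 3 members of each role group with the lowest p without poly(dA:dT), up to 4 called members of each other comparison with the largest change, members called against the main direction, and the 3 highest members not called. MCM2, MCM3, ORC1 and other members are named to account for the whole list. Of the 2 further lists, up to 4 called genes per direction could be named.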

Additional observations from a re-analysis of the deposited data

Results flagged for a closer look

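By the interaction test in the deposited values, 9 members responded to poly(dA:dT) differently under the 2 siRNAs. These were 17.3% of the 52 tested members, beside 18.1% of all tested genes called in the same test, so the share of members was near the background. The response under siQ61K minus that under siNC, in log2, was -1.0 for MCM5, 0.59 for ORC6, -0.61 for POLD1, -0.51 for POLD2, 0.70 for RFC1, 0.95 for RPA3, -0.61 for TK1, -1.13 for CHAF1A and 0.69 for GMNN. After the correction for GC content and length 0 of the 52 members passed the same limma test. An unadjusted p below 0.05 in limma was then reached by 8 of the 52 members, beside 2838 of 14299 genes. In the deposited values 2 of the 9, MCM5 and RPA3, were kept in all 12 fits that left out a library.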

How the results depend on the processing

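For both knockdown comparisons the member counts stayed within 1.5 times the reported 27 and 23 under every alternative run, from 21 (only the groups compared) to 29 (first residual component) and from 19 to 28 for the same settings, and from 18 to 27 and 17 to 24 with each library left out. The share of all tested genes called moved too, from 30.39% to 36.69% and from 15.58% to 27.4% between those settings. With no filter on low values the member counts were 24 and 20, beside 12.49% and 8.067%. With each library left out, 20.65% to 33.85% and 14.45% to 25.61% of all tested genes were called, beside 31.46% and 21.36% with all libraries. For poly(dA:dT) under siNC the limma count was 0 in all of them. For poly(dA:dT) under siQ61K the reported count was 10, beside 25.2% of all tested genes called. The share of all tested genes called is given in brackets below. The count became 6 with no filter on low values (7.855%), 5 with no variance trend (21.9%), 5 with the replicate block (23.3%) and 3 after the GC and length correction (11.5%). It was 2 with the block and the correction together (10.7%), 3 with only the groups compared (14.99%) and 16 with the first residual component as a covariate (30.7%). It was 0 (0.978%) when replicate 3 of siQ61K DMSO was left out together with replicate 2 of the treated siQ61K group, and 2 to 15 (11.1% to 31.4%) with each library left out. For the interaction the reported 9 (18.1%) became 5 with no filter (3.46%), 0 after the correction (2%) and 0 with the block and the correction together (1.49%). It became 2 (3.36%) without those 2 libraries of the siQ61K groups, and 2 to 12 (6.63% to 26.3%) with each library left out. The sign turned for PCNA under siQ61K (-0.0064 after the correction, adjusted p = 0.965, and -0.0064 with the replicate block added, adjusted p = 0.968) and for the interaction of POLD1 (0.1139, adjusted p = 0.831, and 0.1139 with the block, adjusted p = 0.846). The cause was not tested. Samples with the same replicate number deviated together at -0.26 to 0.233, not above 0.1 in every pair, so the numbers are not read as a pairing. With the replicate block the knockdown counts were 23 and 20, beside 30.13% and 20.09% of all tested genes called. Depth limits nothing that can be stated, since TPM keeps none.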
